A study of Capra hircus with 9 samples.

Results

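Plasminogen activators and serpin genes of the goat mammary gland were described from 7 members chosen by symbol among the 23499 genes of the deposited table. The members were the urokinase gene PLAU, the tissue plasminogen activator gene PLAT, the urokinase receptor gene PLAUR and the serpin genes SERPINE2, SERPINF1, SERPING1 and SERPINH1. All 7 members were found, each in a single row. Plasmin is a serine protease that cleaves fibrin and other matrix proteins, activates latent matrix proteases and, in milk, cuts caseins. It arises from plasminogen, which is made mainly in the liver, when urokinase on its cell surface receptor or tissue plasminogen activator cuts the precursor. Most serpins trap proteases and are consumed in the process, but some members of the family have other functions. After milking stops, the mammary gland loses milk-secreting epithelium and remodels its matrix, and plasminogen activation is known to take part in that remodeling in rodents and ruminants.

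Mammary gland tissue was taken from 9 healthy Laoshan dairy goats with an average age of 4 years, all in parity 3, kept on the same farm under its standard feeding. Late lactation (LL) was sampled 240 d postpartum, the dry period (DP) 300 d postpartum and late gestation (LG) 140 d after mating, with 3 goats and 3 RNA-seq libraries per stage. Each stage came from different goats, and the labels give no treatment. The libraries were made from whole tissue, so fewer cells of a type and less RNA per cell cannot be told apart.

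The values were read as FPKM (fragments scaled to transcript length and library size), and the reads behind each value are unknown, so no counting error could be given. The FPKM of a library summed to between 601250 and 1157015, with the highest sums in LL, and the 5 markers of secreting epithelium (CSN2, LALBA, CSN1S1, BTN1A1 and XDH) had summed scaled FPKM of 278966 to 450987 for LL, with 55.4 to 66.9 for DP and 5577 to 7329 for LG. The values of CSN1S1, KRT5, KRT14 and PECAM1 were, like those of C1R, tied to a neighbouring gene (within 1% of their range) and are uncertain. To compare stages, each library's FPKM were divided by its median-ratio factor (0.498 to 0.605 for the LL libraries and up to 1.53 for the other stages), and the quotient is called scaled FPKM. Log2 fold changes are differences of log2(scaled FPKM + 1) from limma over 14701 genes that reached 0.5 FPKM in 3 libraries or more, and this scale understates the change of low genes. A gene was called higher or lower when its adjusted p (Benjamini-Hochberg) was under 0.05 and its log2 fold change was 1 or more in size. Without scaling the median log2 fold change of all tested genes was 1.09 (DP against LL), 0.93 (LG against LL) and -0.18 (LG against DP), and with scaling it was 0.0041, 0.019 and 0.0083.

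DP replicate 3 stood apart for several members. Relative to the mean of DP replicates 1 and 2, its scaled FPKM was 11.4 times as high for SERPINF1, 6.08 times for SERPINE2, 2.89 times for SERPINH1 and 2.32 times for PLAUR, but 1.78 times for SERPING1, 1.48 times for PLAT and 1.16 times for PLAU. It was above both other DP libraries for 6 members and between them for PLAU, but the share of all tested genes above both was not computed. The same library was 5.33 times as high for the collagen gene COL1A1 and 4.55 times for the proteoglycan gene LUM, while the fibroblast genes DCN, PDGFRA and PDGFRB were 1.39, 1.41 and 1.43 times as high. The 8 fibroblast markers summed to 584, 978 and 2616 scaled FPKM in DP replicates 1, 2 and 3, against 234 to 357 in LL and 538 to 978 in LG. Each DP library was also set against the mean log2 value of the other DP libraries. The share of tested genes at least 1 log2 unit higher was 3.04% in DP replicate 3, 2.33% in replicate 1 and 0.660% in replicate 2. Markers of other cell types differed in this library too. The basal and myoepithelial markers were split. CNN1, ACTA2 and MYLK were 6.05, 4.24 and 2.82 times as high and TP63 1.05 times, but KRT14, KRT5 and OXTR were 0.797, 0.583 and 0.265 times as high. The luminal epithelial markers EPCAM, KRT18, KRT8, CDH1 and ELF5 were at 0.581 to 0.745 times, but KRT19 was at 1.13 times. The tested lymphocyte and leukocyte markers PTPRC, CD2, CD3E and CD3D were at 0.304 to 0.552 times. Of the tested macrophage markers, MRC1 (2.62), CD14 (1.44) and AIF1 (1.13) were higher and CSF1R (0.968) and CD68 (0.387) lower. The part of this library's transcripts from stromal or other cells in the serpin values was not tested. Results below are given with and without DP replicate 3 where a call or a value turned on it.

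**Figure D1:**
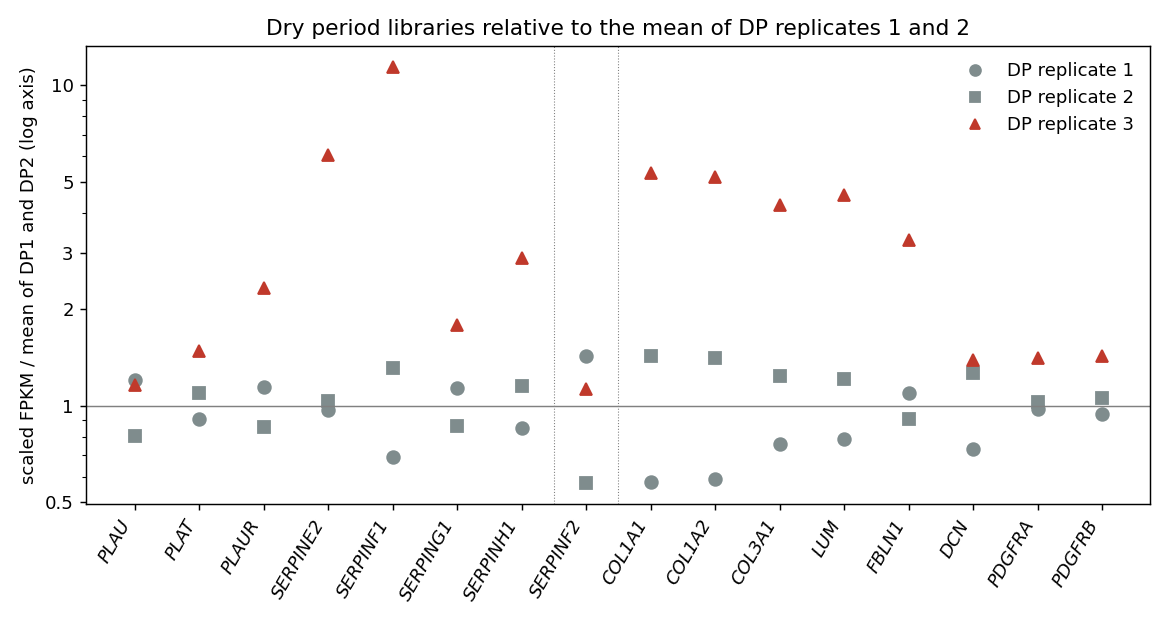
Scaled FPKM of each dry period library divided by the mean of DP replicates 1 and 2 (log axis), for the 7 members, SERPINF2 and 8 fibroblast markers, with a point per library. DP replicate 3 (triangles) sits 11.4 times above the mean of the other two for SERPINF1 and 6.08 times for SERPINE2, but 1.16 times for PLAU.

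In the dry period 4 of the 7 members were called higher than in late lactation, namely PLAT, PLAUR, SERPING1 and SERPINH1, and none was called lower. Among all tested genes 13.8% were called higher and 8.79% lower in that comparison. In late gestation against late lactation SERPINH1 alone among the members was called higher and none lower, against 10.7% and 6.61% of all tested genes. In late gestation against the dry period PLAT, PLAUR, SERPINE2 and SERPING1 were called lower and no member higher, against 6.88% and 6.37% of all tested genes. The median log2 fold change of the members was 1.45, -0.26 and -1.76 in these comparisons. Each stage enters a pair of comparisons, so they are not independent. By adjusted p alone, with no threshold on the fold, 5 members were higher in DP than in LL (28.2% of all tested genes, and 28.6% lower), 1 was higher in LG than in LL (25.6%, and 24.6% lower), and 5 were lower in LG than in DP (16.4%, and 18.4% higher). The scaled values of DP lay wholly above those of LL for 6 members and wholly below for none, against 32.5% and 33.4% of all tested genes. For LG against LL, 2 members lay wholly above and 1 wholly below (31.0% and 30.2%), and for LG against DP, none lay wholly above and 6 wholly below (25.1% and 22.8%). Without DP replicate 3, 4 members were still called higher in DP than in LL (13.3% of all tested genes in that fit), and 3 were called lower in LG than in DP (6.25%).

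**Figure D2:**
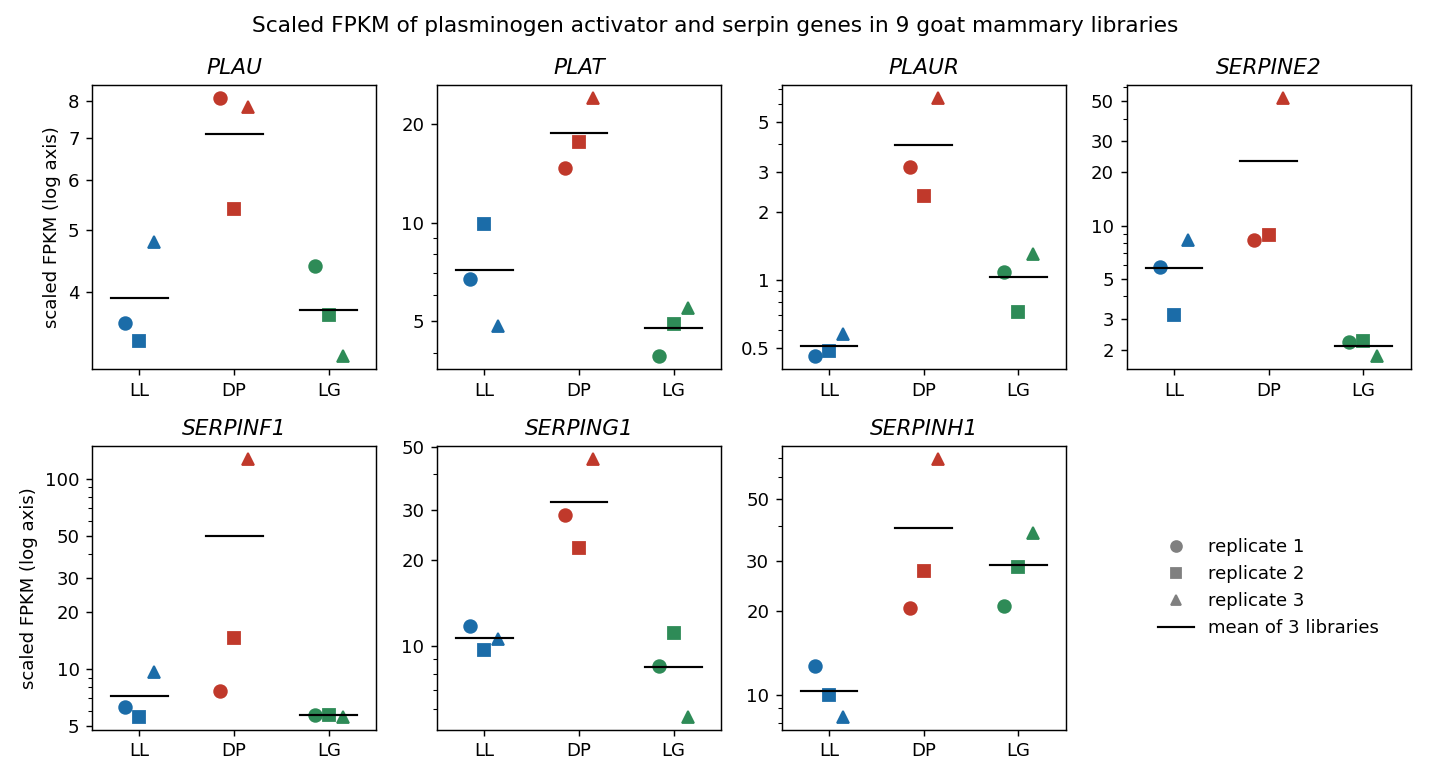
Scaled FPKM (log axis, a different range for each gene) of the 7 members in late lactation (LL), the dry period (DP) and late gestation (LG), with a point per library and a bar for the mean of 3 libraries. The DP libraries are above all LL and LG libraries for PLAU, PLAT, PLAUR and SERPING1, whereas the LG libraries of SERPINH1 lie within its DP range.

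PLAU (gene ID 102188193, chromosome 28, 15834400 to 15840437, minus strand; the table names no genome build) encodes urokinase, the activator that works on the cell surface. Scaled FPKM of PLAU was 3.58, 3.34 and 4.79 in LL replicates 1, 2 and 3, then 8.10, 5.41 and 7.82 in the DP libraries and 4.40, 3.67 and 3.17 in the LG libraries. The lowest DP library was above the highest library of the other stages, while LL and LG overlapped. DP exceeded LL by 0.72 on the log2 scale (SE 0.18, adjusted p = 0.00691), and LG differed from DP by -0.76 (SE 0.18, adjusted p = 0.0088), both past the p threshold but under the fold threshold, so PLAU was not called. In LG against LL it was -0.04 with a 95% interval of -0.44 to 0.35, and the sign turned without scaling (0.84).

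PLAT (gene ID 102187371, chromosome 27, 8543859 to 8567749, plus strand) encodes tissue plasminogen activator, which works best when bound to fibrin. The LL libraries had 6.73, 9.89 and 4.84 scaled FPKM of PLAT, the DP libraries 14.7, 17.6 and 24.0, and the LG libraries 3.92, 4.91 and 5.48. Every DP library was above every other library. PLAT was higher in DP than in LL by 1.30 on the log2 scale (SE 0.24, adjusted p = 0.0018) and lower in LG than in DP, with a log2 fold change of -1.76 (SE 0.24, adjusted p = 0.000677). Both calls held with each library left out in turn, with log2 fold changes of 1.07 to 1.52 and of -1.90 to -1.56. Between LG and LL the log2 fold change was -0.46 (adjusted p = 0.144, 95% interval -1.01 to 0.09), or 0.53 without scaling.

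PLAUR (gene ID 102186624, chromosome 18, 52941228 to 52954420, minus strand) encodes the receptor that holds urokinase on the cell surface. It had the lowest level of the members in each stage. Its scaled FPKM was 0.462, 0.488 and 0.578 in LL libraries, 3.16, 2.37 and 6.42 for DP and 1.09, 0.722 and 1.30 for LG. The 3 stages did not overlap, with LL lowest and DP highest. No LL library reached 0.5 FPKM before scaling, so PLAUR passed the filter through its DP and LG libraries, whereas the other 6 members reached it in every library. PLAUR was higher in DP than in LL, with a log2 fold change of 1.64 (SE 0.25, adjusted p = 0.000565), and with a pseudocount of 0.1 in place of 1 this became 2.62. The log2 fold change of LG against DP was -1.22 (SE 0.25, adjusted p = 0.0054), and without DP replicate 3 it was -0.87 and no longer called. In LG against LL it was 0.42 (adjusted p = 0.194), and the sign turned under quantile normalization (-0.093).

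SERPINE2 (gene ID 100861161, chromosome 2, 23610071 to 23678888, plus strand) encodes protease nexin 1, an inhibitor of thrombin, urokinase and tissue plasminogen activator. The level in scaled FPKM was 5.89, 3.15 and 8.31 in the LL goats, 8.31, 8.89 and 52.3 in the DP goats and 2.20, 2.24 and 1.85 in the LG goats. The LG libraries were the lowest and close to each other, and DP replicates 1 and 2 were barely above LL replicate 3. SERPINE2 was lower in LG than in DP, with a log2 fold change of -2.46 (SE 0.59, adjusted p = 0.0102), and without DP replicate 3 it was -1.62 (adjusted p = 0.00304) and still called. In DP against LL the log2 fold change was 1.40 (SE 0.59, adjusted p = 0.0646) and 0.58 without DP replicate 3. It was called without DP replicate 1 (1.83, adjusted p = 0.0312) or DP replicate 2 (1.79, adjusted p = 0.0382). In LG against LL it was -1.06 (adjusted p = 0.161), although the stages did not overlap.

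SERPING1 (gene ID 102181884, chromosome 15, 2420352 to 2435086, minus strand) encodes C1 inhibitor, which blocks the complement proteases C1r and C1s and the contact proteases plasma kallikrein and factor XIIa. Late lactation libraries held 11.8, 9.65 and 10.5 scaled FPKM, dry period libraries 28.9, 22.0 and 45.4 and late gestation libraries 8.48, 11.1 and 5.65. Every DP library was above every LL and LG library, and LL and LG overlapped. SERPING1 was higher in DP than in LL, with a log2 fold change of 1.45 (SE 0.28, adjusted p = 0.00192), and lower in LG than in DP, with -1.79 (SE 0.28, adjusted p = 0.00115). Both calls held with each library left out in turn, at 1.17 to 1.67 and at -2.02 to -1.51. In LG against LL the log2 fold change was -0.35 (adjusted p = 0.324), or 0.70 without scaling.

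SERPINF1 (gene ID 102179233, chromosome 19, 22644651 to 22656868, plus strand) encodes pigment epithelium-derived factor (PEDF), a secreted serpin without protease inhibition that is known to limit blood vessel growth. Scaled FPKM of this gene was 6.29, 5.62 and 9.61 for LL, but 7.68, 14.6 and 128 for DP and 5.75, 5.73 and 5.61 for LG. The spread among the DP libraries was larger than the difference between stages, and DP replicate 1 lay within the LL range. The DP coefficient of variation of its FPKM was 134%, the highest of the members, and the LG coefficient of variation was 3.41%, the lowest. None of its comparisons was called, at log2 fold changes of 1.70 (SE 0.78, adjusted p = 0.0884) between DP and LL, -0.26 (adjusted p = 0.807, or 0.73 without scaling) between LG and LL and -1.95 (SE 0.78, adjusted p = 0.0795) for LG against DP. Without DP replicate 3 the first and last values were 0.54 and -0.79. Without DP replicate 1 they were 2.48 (adjusted p = 0.0164) and -2.73 (adjusted p = 0.017) and both were called.

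SERPINH1 (gene ID 102171265, chromosome 15, 28270997 to 28281500, minus strand) encodes HSP47, a chaperone of the endoplasmic reticulum that binds procollagen and does not inhibit proteases. Its scaled FPKM values were 12.7, 10.1 and 8.39 for LL, 20.5, 27.7 and 69.6 for DP and 20.9, 28.6 and 37.8 for LG. All DP and LG libraries were above all LL libraries, while DP and LG overlapped. SERPINH1 was higher than in LL both in DP (log2 fold change 1.65, SE 0.40, adjusted p = 0.00643) and in LG (1.38, SE 0.40, adjusted p = 0.0163). The LG call was lost without LL replicate 3 (1.24, adjusted p = 0.058) or LG replicate 3 (1.18, adjusted p = 0.0615). Between LG and DP the log2 fold change was -0.26 (adjusted p = 0.641), with a 95% interval of -1.15 to 0.63, and without DP replicate 3 it was 0.24.

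**Figure D3:**
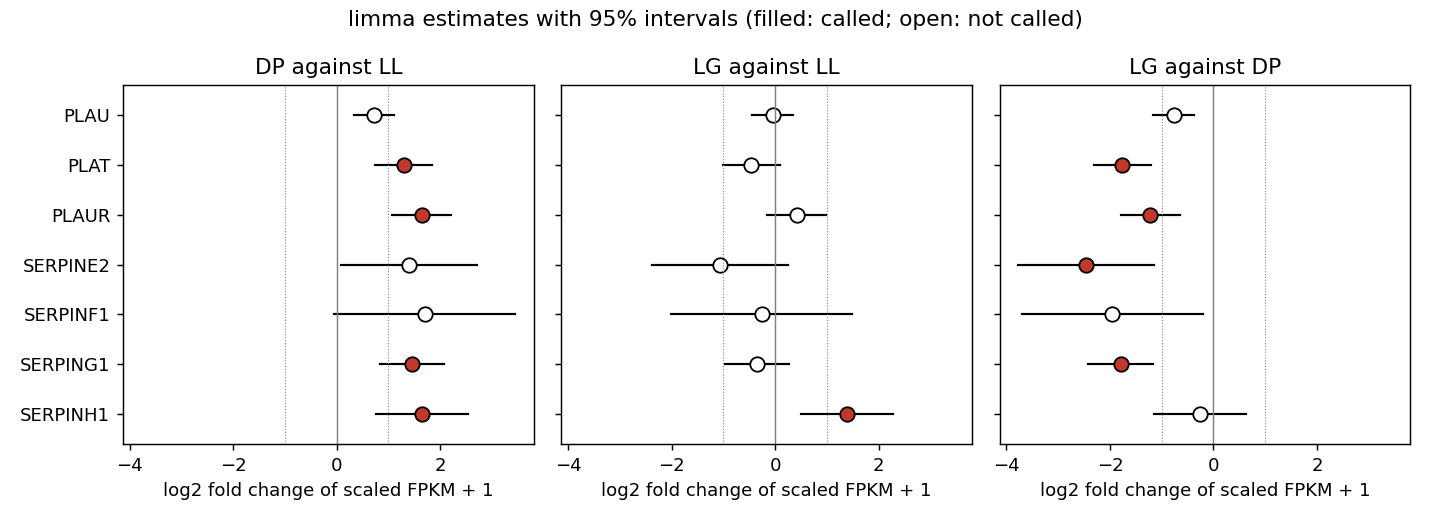
Log2 fold changes of scaled FPKM + 1 for the 7 members in the 3 comparisons, with 95% intervals from limma. Filled points mark called genes, namely 4 (DP against LL), 1 (LG against LL) and 4 (LG against DP), and dotted lines mark a log2 fold change of 1 in each direction.

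Levels of different members were compared per transcript length, as mean FPKM without scaling. In LL, SERPING1 (5.86) and SERPINH1 (5.65) led and SERPINF1 (4.02), PLAT (3.92), SERPINE2 (3.23) and PLAU (2.18) followed, and each of these overlapped its neighbour in the order, while PLAUR (0.283) was apart. In DP, SERPINF1 (72.1), SERPINH1 (57.1), SERPING1 (47.0), SERPINE2 (33.6) and PLAT (27.4) had the higher means and each overlapped the next. PLAU (10.5) and PLAUR (5.83) had the lowest means and overlapped, and PLAT was above PLAU without overlap, whereas DP replicate 1 had less SERPINF1 (11.74) than PLAU (12.38). In LG, SERPINH1 (36.6) was above SERPING1 (10.4), with no overlap, and SERPING1 was above SERPINF1 (7.11). PLAT (5.99) overlapped SERPINF1 and PLAU (4.65), while SERPINE2 (2.61) and PLAUR (1.30) were each apart from the genes above them. The first place of SERPINF1 in DP rested on DP replicate 3. Over DP replicates 1 and 2, SERPING1 (37.9) and SERPINH1 (35.6) had the highest means and SERPINF1 was at 16.4.

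Ratios of FPKM within a library do not depend on the scaling between libraries. Of 18 comparisons of 6 ratios, tested with two-sided exact permutation tests, none could go below p = 0.1 with 3 libraries against 3, and the adjusted p was 0.36 or above in each. The PLAU/PLAUR ratio was 7.74, 6.85 and 8.29 for LL, 2.56, 2.29 and 1.22 for DP and 4.05, 5.09 and 2.43 for LG. LL was above both other stages without overlap (exact permutation p = 0.1, adjusted p = 0.36 for each), while DP and LG overlapped, and both differences depended on the low PLAUR level. With 1 FPKM added to both genes the log2 difference went from -1.98 to -0.47 for DP and LL, whose libraries then overlapped, and from -1.04 to 0.017 for LG and LL. The ratio of PLAU and PLAT together to their inhibitor SERPINE2 was 1.75, 4.21 and 1.16 for LL, 2.74, 2.59 and 0.607 for DP and 3.78, 3.84 and 4.67 for LG. LG was above DP without overlap by 1.32 on the log2 scale (exact permutation p = 0.1, adjusted p = 0.36), by 0.61 without DP replicate 3, and the LL libraries spanned most of the range.

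The PLAU/PLAT ratio was 0.531, 0.338 and 0.990 for LL, 0.552, 0.307 and 0.327 for DP and 1.12, 0.748 and 0.578 for LG. LG was above DP without overlap by 1.04 on the log2 scale (exact permutation p = 0.1, adjusted p = 0.36), and LL overlapped both stages. The ratio of SERPINH1 to the summed collagen genes COL1A1, COL1A2 and COL3A1 was 0.114, 0.0938 and 0.0499 for LL, 0.0811, 0.0557 and 0.0391 for DP and 0.0487, 0.0344 and 0.0687 for LG. All 3 stages overlapped for this chaperone ratio. The ratio of SERPING1 to its targets C1R and C1S was 0.215 to 0.236 in DP, 0.234 to 0.375 in LL and 0.238 to 0.390 in LG. LG was above DP without overlap for it (0.49 on the log2 scale, exact permutation p = 0.1, adjusted p = 0.36), but over C1S alone DP was at 0.345 to 0.381 and LG at 0.299 to 0.515, which overlapped. The ratio of SERPINF1 to DCN overlapped in all 3 comparisons.

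**Figure D4:**
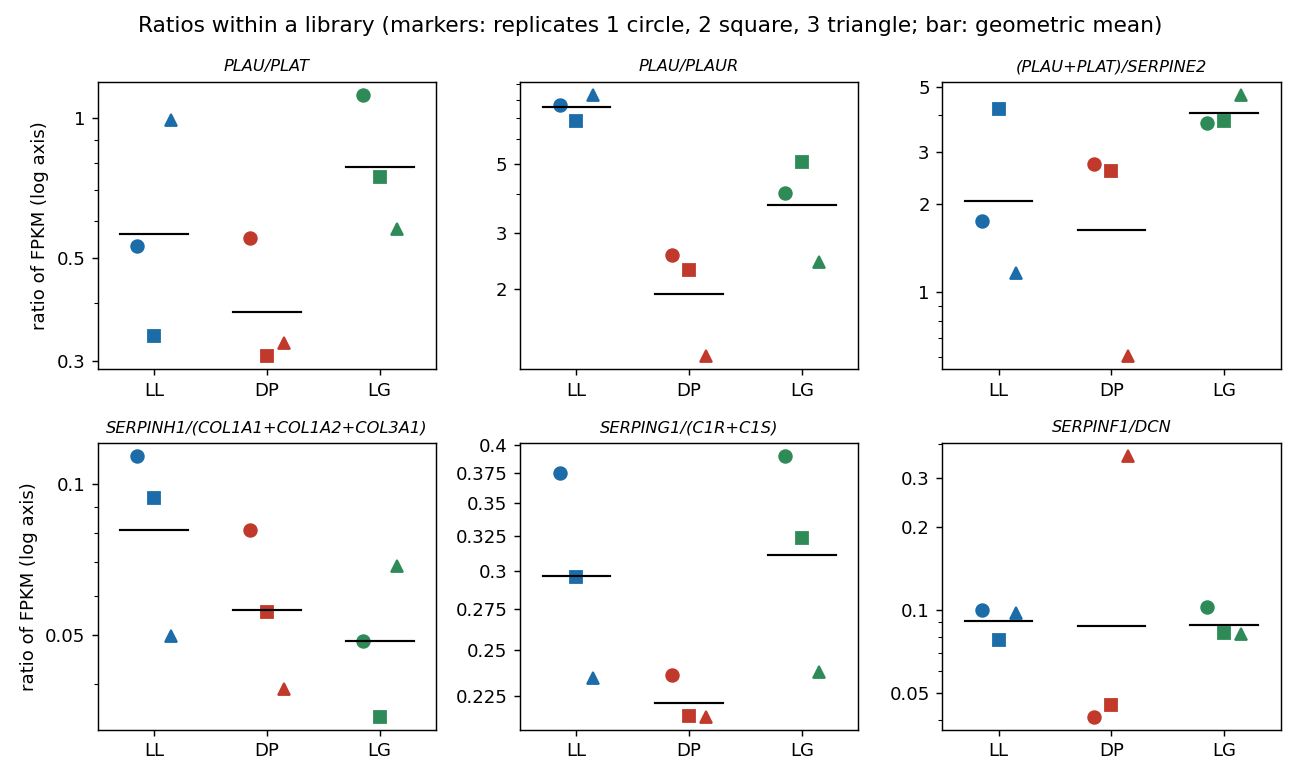
Ratios of FPKM within each library (log axes) for 6 pairs of a member with a partner or target, by stage, with a point per library and a bar for the geometric mean. PLAU/PLAUR is 6.85 or above in every LL library and 2.56 or below in every DP library, whereas SERPINF1/DCN is 0.360 in DP replicate 3 and 0.0410 and 0.0453 in the other DP libraries.

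The remaining serpin genes were 19, of which 7 passed the filter on low values, 4 were at 0 in every library and the highest value among the 12 that did not pass was 1.33 FPKM. SERPINF2, which encodes alpha-2-antiplasmin, the direct inhibitor of plasmin, was the only tested gene of these called higher in DP than in LL. Its FPKM was 0.07, 0.15 and 0.33 for LL, 7.69, 2.9 and 5.69 for DP and 0.15, 0.15 and 0.24 for LG. DP was above both other stages without overlap, with log2 fold changes of 1.78 (SE 0.23, adjusted p = 0.000211) against LL and -1.97 (SE 0.23, adjusted p = 0.00031) for LG against DP. It passed the filter through its 3 DP libraries alone and was not tested without DP replicate 3. SERPINF2 lies beside SERPINF1 on chromosome 19, at 22629867 to 22637599, and its level in DP was highest in replicate 1, in which that of SERPINF1 was lowest. SERPINB5, the gene of the epithelial serpin maspin, was called higher in LG than in LL (log2 fold change 1.05, adjusted p = 0.00266) and was at 0.92 in DP against LL (adjusted p = 0.00444), under the fold threshold. The FPKM of SERPINB5 was 0.22, 0.31 and 0 for LL, 1.95, 2.55 and 2.07 for DP and 2.44, 2.6 and 1.46 for LG. No LL library reached 0.5 FPKM, so SERPINB5 passed the filter only through its DP and LG libraries. Its LG call was lost under quantile normalization (0.80) and without LL replicate 3 (0.87), LG replicate 1 (0.96) or LG replicate 2 (0.94).

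Among 16 listed partners of the plasminogen system, 14 were in the table and 10 were tested. In DP against LL 3 were called higher and none lower (median log2 fold change 0.46), namely SERPINF2, the uptake receptor LRP1 (1.71, adjusted p = 0.0029) and MRC2 (1.43, adjusted p = 0.00101), which encodes a collagen receptor that associates with PLAUR. SERPINF2 counts here although it was tested only because its DP libraries are high, and without DP replicate 3 it left the test, so that 2 of 9 tested partners were called higher and 1 lower. The plasminogen gene PLG did not exceed 0.02 FPKM in any library, and VTN, which encodes vitronectin, was listed at 0 in all. S100A10, which encodes a plasminogen-binding partner of annexin A2, was called lower in LG than in LL (-1.76, adjusted p = 0.00361, but -0.63 and not called without scaling) and than in DP (-2.24, adjusted p = 0.00166). Its FPKM was 22.92, 20.47 and 34.49 for LL, 48.65, 121.98 and 143.09 for DP and 14.11, 18.24 and 16.04 for LG, and after scaling DP overlapped LL.

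Collagens and their folding enzymes, the clients and coworkers of HSP47, had 16 tested genes. In DP against LL 7 were called higher and 2 lower (the median was 0.54), and 6 and 2 were called without DP replicate 3. FKBP10, which encodes a prolyl isomerase of the collagen folding path, had the largest rise with the scaling used (2.39, adjusted p = 0.000421), close to COL1A1 (2.37). COL3A1 had the largest rise under quantile normalization (3.999) and COL1A1 without scaling (3.71). The FPKM of FKBP10 was only 0.54, 0 and 0.16 in the LL libraries, close to the filter level of 0.5 or below it. P4HB, which encodes a subunit of prolyl 4-hydroxylase, had the largest fall (-1.73, adjusted p = 0.000378), but it was not called under quantile normalization (-0.79) or without scaling (-0.33). In LG against LL 4 were called higher, led by COL3A1 (2.42, adjusted p = 0.00458, but adjusted p = 0.0894 under quantile normalization), and 1 lower, P4HB (-1.01, adjusted p = 0.00823). The P4HB value was -0.47 under quantile normalization and 0.16 without scaling, and its call was also lost without LL replicate 1 (-0.97), LL replicate 2 (-0.92) or LG replicate 2 (-0.97). COL1A1 was not called in LG against LL without LL replicate 1 (1.96), LL replicate 2 (2.04) or LG replicate 2 (1.71). The only call in LG against DP was CRTAP, with a log2 fold change of -1.16 (adjusted p = 0.0025), and without DP replicate 3 there were 2 calls higher and none lower. With all libraries, SERPINH1 was called in the same comparisons and direction as COL1A1, COL3A1, FKBP10 and COL5A2, but not as the rest of the 16 tested genes. COL1A2, COL5A1 and CRTAP were called higher in DP than in LL but were not called in LG against LL. P4HB and PLOD2 were called only lower, and the remaining genes had no call.

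The C1 complex and contact proteases had 6 tested genes of 10. In DP against LL 5 were called higher, namely C1S, C1R, C1QC, C1QA and C1QB, and none lower (the median was 1.46), and the count without DP replicate 3 was also 5. C1S, a target of C1 inhibitor, had the largest rise (1.91, adjusted p = 0.000504). The same genes were called lower in LG than in DP, led by C1R (-2.90, adjusted p = 0.000134), and without DP replicate 3 the count was 3. In LG against LL only C1R was called, with a log2 fold change of -1.04 (adjusted p = 0.0129). That call was lost without scaling (0.019), under quantile normalization (-0.95) and without LL replicate 3 (-0.97), LG replicate 1 (-0.95) or LG replicate 3 (-0.89). The values of C1R moved together with those of a neighbouring uncharacterized gene within 0.307% of their range and are uncertain, and so is the ratio to C1R and C1S. SERPING1 was called in the same direction as C1R and C1S in DP against LL and LG against DP.

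Of the thrombin gene, its receptors and thrombomodulin, 4 of 6 were tested. The gene THBD, which encodes thrombomodulin, was called lower than in LL both in DP (-1.12, adjusted p = 0.0321, with overlapping stages and 0.099 without scaling) and in LG (-1.98, adjusted p = 0.00256), and the receptor genes F2R (-1.57, adjusted p = 0.000258) and F2RL2 were called lower in LG than in DP. The THBD call in DP was lost without LL replicate 1 (-0.65), DP replicate 1 (-0.997) or DP replicate 2 (-0.99). The median log2 fold change was 0.30 for DP against LL, -0.91 for LG against LL and -1.14 for LG against DP. All 4 genes for PEDF-binding proteins were tested. PLXDC1 (2.44, adjusted p = 0.000352) and PLXDC2 (1.90) were called higher in DP than in LL, and the largest fall in LG against DP was that of PLXDC2 (-2.32, adjusted p = 6.52e-05). PNPLA2 was called lower in LG than in LL (-1.13, adjusted p = 0.00921, but not without LL replicate 3 at -0.96, without LG replicate 1 at -0.82 or without scaling at -0.061), where PLXDC1 was called higher (1.31, adjusted p = 0.0116).

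Marker genes of other cell types differed between the stages as well. In DP against LL 7 of 8 fibroblast markers, 2 of 5 tested macrophage markers and 4 of 4 tested lymphocyte and leukocyte markers were called higher, and none of 6 endothelial markers was called. Without DP replicate 3 these counts were the same, but MRC1 (0.69) was no longer called and CD68 (1.22, adjusted p = 0.0121) was. In LG, where SERPINH1 was higher than in LL, 2 of 8 fibroblast markers, COL1A1 and COL3A1, were called higher than in LL. In LG against DP 4 of 8 fibroblast markers and 5 of 5 tested macrophage markers were called lower, as were 2 of 6 endothelial markers (CLDN5 and TEK) and 1 of 4 tested lymphocyte and leukocyte markers (PTPRC). Without DP replicate 3 the fibroblast count stayed at 4, but 3 macrophage markers and 1 endothelial marker were called lower. AIF1 (-0.95), MRC1 (-0.71) and TEK (-0.98) lost the call, while 2 lymphocyte and leukocyte markers, PTPRC and CD2 (-1.11), were called lower. Between LG and LL, 2 of 5 tested macrophage markers (CD14 and CD68) were called lower in LG and 1 lymphocyte marker (CD3D) higher. The macrophage markers summed to 37.5 to 47.2 scaled FPKM for LL, 80.1 to 98.9 for DP and 28.4 to 30.6 for LG, and the lymphocyte and leukocyte markers to 11.4 to 12.9, 26.2 to 80.6 and 16.0 to 25.4. The adipocyte markers, of which 2 of 4 were tested and none was called, summed to 20.4 in DP replicate 1 and 3.72 or less in the other libraries. The liver gene ALB stayed at or below 0.12 FPKM and APOB was listed at 0 in every library, but the other liver markers were higher in some DP libraries. APOA1 was at 21.0, 6.53 and 21.74 FPKM in the DP libraries and 2.01, 2.98 and 4.27 for LL and was not called, and TTR was at 17.01, 70.46 and 1.36 for DP and was called higher than in LL (2.83, adjusted p = 0.0238). The TTR call was lost without LL replicate 1 or 3 or DP replicate 1 or 2 (log2 fold changes of 1.68 to 2.84, adjusted p of 0.0523 to 0.0642) and under quantile normalization. Luminal epithelial markers had 1 call in DP against LL, ELF5, which was lower, and the basal and myoepithelial markers 1 call, TP63, which was higher. For CD3D, TTR and TP63 no LL library reached 0.5 FPKM, so these genes passed the filter only through DP and LG libraries. The part of these cell types in the member values was not tested.

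The genes most like each member over the 9 libraries, by Pearson's r of log2(scaled FPKM + 1) among 10247 genes, are given as a description, since the libraries share stages. For SERPINF1 they were GFPT2 (r = 0.99), C1QTNF3 and TNC, for SERPINE2 EFEMP1 (0.98), MARVELD1 and PTGIS, and for SERPINH1 P3H1 (0.97), GNG11 and SLC45A3. P3H1 encodes a prolyl hydroxylase of the collagen folding path. For PLAU they were SPRY1 (0.98), DIRC2 and ADAM28, for PLAT ARHGAP29 (0.98), GALNT2 and TPM4, for PLAUR NID2 (0.98), SEMA3B and RAB23, and for SERPING1 TRPV6 (0.99), SSBP4 and ADGRE5. Without DP replicate 3 the r of the leading gene stayed between 0.95 and 0.98 for all 7 members.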

How the data were processed

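RNA was extracted from mammary gland tissue of 9 goats and libraries were made with the TruSeq RNA Library Prep Kit v2. Per the submitters' processing notes, FastQC, Trimmomatic, HISAT2, SAMtools and HTSeq were used. The deposited table holds 9 columns of values whose unit it does not name. They were taken as FPKM computed by the authors per gene, without the correction between libraries that the paper describes, since the values are not whole and their column totals differ. The aligned build of the table is not given in the sources used here. No count of reads could be recovered, so a count test was not run and depth gives no interval.

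FPKM were divided by median-ratio scaling factors and transformed as log2(scaled FPKM + 1). For the 14701 genes reaching 0.5 FPKM in 3 or more libraries, linear models were fitted over all 9 libraries with lmFit and moderated with eBayes (trend) from limma 3.58.1, run under R 4.3.3, and p-values were adjusted over all of these genes by the Benjamini-Hochberg method. Ratios were tested with exact permutation tests in Python 3.11.15 with scipy 1.17.1, with adjustment over 18 tests. The script was tested on simulated data. Stages were taken from the labels. The genes named are the 7 members and the other serpins, the largest called rise and fall in each pathway list and the list genes that a result turns on, and the 3 genes most alike to each member. MRC2, C1S, C1QC, C1QA, C1QB, F2RL2 and other list genes named within counts were added after their values were seen. Not every listed gene is reported here, though list counts cover each of them. Members and lists were chosen with earlier results of these data known. Alternatives covered scaling, pseudocount, the filter, the libraries in the fit, a replicate block, the trend, the call rule and each library left out; the settings tried on list genes, the ratio over C1S alone and the list counts without DP replicate 3 were chosen after seeing the data.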

Additional observations from a re-analysis of the deposited data

How the results depend on the processing

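Of 294 alternatives of the members' log2 fold changes, 272 kept direction and side of the threshold, 11 became called, 3 lost the call and 8 changed sign. Without scaling, 7 members were called higher in DP than in LL, but the median log2 fold change of all tested genes was then 1.09, past the fold threshold. The calls over all 14701 tested genes, in both directions together, went from 3321 to 8348 in DP against LL and from 2544 to 7043 in LG against LL. The LG against LL values of PLAU (0.84), PLAT (0.53), SERPINF1 (0.73) and SERPING1 (0.70) turned positive, where the median of all genes was 0.93. Quantile normalization turned PLAUR in LG against LL to -0.093. A pseudocount of 0.1 gave 3912 calls over all genes in LG against LL. The adjusted p alone gave 8359, 7383 and 5112 calls in DP against LL, LG against LL and LG against DP, against 1948 in the last comparison with the fold threshold, and it called 5, 1 and 5 members. With a library left out in turn, 0 to 1 members were called in LG against LL, PLAU in LG against LL ranged from -0.14 to 0.073, and SERPINH1 in LG against DP from -0.62 to 0.24. The log2 ratio differences that changed sign ranged from -0.74 to 0.38 for the activators over SERPINE2 in DP against LL, from -0.47 to 0.060 for SERPINH1 over collagens in LG against DP, and from -0.10 to 0.26 for SERPING1 over C1R and C1S in LG against LL. SERPINF1 over DCN ranged from -1.08 to 0.48 in DP against LL, from -0.16 to 0.020 in LG against LL and from -0.53 to 1.04 in LG against DP. PLAU over PLAUR with 1 FPKM added gave 0.017 in LG against LL. The causes were not tested. Replicate numbers were not shown to pair the libraries, since deviations of same-numbered libraries correlated at -0.11 to 0.20 (different numbers -0.22 to 0.072, with 4 of 9 same-numbered pairs above all of these) and 4 of 9 libraries correlated best with their own number in both other stages. With a replicate block 5, 1 and 5 members were called (13.9%, 10.8% and 7.03% of all genes in the direction of the calls), adding SERPINE2 in DP against LL (adjusted p = 0.0346) and SERPINF1 in LG against DP (adjusted p = 0.0474). FPKM carry no read counts, so depth set no limit that could be computed, and 3 libraries a stage limit the precision.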
